A study of Mus musculus with 8 samples.

Results

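The loci described here are 10 marker genes of liver cells other than hepatocytes, out of 21938 protein-coding genes in the mouse annotation. They were chosen by name and not by any measured value: 4 mark endothelial cells (Pecam1, Kdr, Stab2, Lyve1), 2 Kupffer cells (Clec4f, Adgre1), 2 immune cells in general (Ptprc, Lyz2) and 2 hepatic stellate cells (Col1a1, Lrat). Their open chromatin was read from bulk ATAC-Seq of hepatocyte preparations, in which the Tn5 transposase cuts accessible DNA, to see how much of the loci of other liver cells appears in them. By the labels, the hepatocytes came from livers of C57BL/6 mice 10-12 weeks old on a normal diet (the study's methods name male C57BL/6J mice and a somewhat younger age at surgery), freed by two-step collagenase perfusion, and nuclei were taken for the assay. The 8 libraries were 2 from undamaged liver (0 h) and 2 each taken 48, 72 and 96 h after surgery by partial hepatectomy (PHx), which removes lobes and leaves the rest to regrow.

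Hepatocytes make up most of the liver mass and share it with cells that line and surround the sinusoids, the capillaries of the liver. Sinusoidal endothelial cells form a fenestrated wall that takes up waste macromolecules, Kupffer cells are the resident macrophages within it, and stellate cells store vitamin A beside it and turn into collagen-producing cells after injury. Collagenase perfusion followed by slow centrifugation enriches hepatocytes, and some of the smaller cells can be carried along.

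For every library the authors deposited a list of peaks with a −log10 p from the peak caller, and each was reduced to distinct intervals ranked by that value. The strength of an interval is given as its percentile within its own library, so that a value of 100 is the strongest interval and 0 means that none was listed. The lists held 105206 to 154577 distinct intervals, and the −log10 p of the 50000th ranged from 8.05 to 15.2. The lowest listed −log10 p was close to 2 in every library, so an unlisted site is one below that threshold and not one shown to be closed. Read counts were not part of the lists and the depth is unknown, so no counting error is given. A promoter value is the strongest interval overlapping the 1 kb either side of any annotated start of a gene by at least 1 bp, and distal intervals lie in the gene body or within 10 kb of it and outside 1 kb of any start. In bulk samples a smaller number of cells of a type and less open chromatin per cell cannot be told apart. The libraries of a time point are separate samples by their labels, and p-values measure the spread between these samples.

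The sequences upstream of the starts differed in CG content. Those of 4 members are shown, picked by their promoter listing: 2 were listed in all libraries and 2 in none. Each CG is in capitals (RefSeq promoter table, GRCm38.p6, 5′ to 3′ on the minus strand of each gene, ending before the RefSeq and GENCODE starts). Lrat is at chr3:82903975-82904174 with 16 CG in 200 bases, Kdr at chr5:75978459-75978655 with 15 in 197, Stab2 at chr10:87008026-87008142 with 1 in 117 and Lyz2 at chr10:117282322-117282472 with 1 in 151.
Lrat: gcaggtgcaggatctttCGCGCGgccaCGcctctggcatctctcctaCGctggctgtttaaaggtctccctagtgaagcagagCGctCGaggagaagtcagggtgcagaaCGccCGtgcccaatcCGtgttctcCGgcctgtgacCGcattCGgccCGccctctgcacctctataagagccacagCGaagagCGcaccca
Kdr: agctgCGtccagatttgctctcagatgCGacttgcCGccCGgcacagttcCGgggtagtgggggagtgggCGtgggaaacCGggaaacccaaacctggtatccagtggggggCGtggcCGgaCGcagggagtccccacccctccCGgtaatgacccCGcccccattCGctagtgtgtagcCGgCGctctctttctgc
Stab2: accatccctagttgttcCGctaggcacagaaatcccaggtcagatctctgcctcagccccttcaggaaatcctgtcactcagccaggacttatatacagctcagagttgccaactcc
Lyz2: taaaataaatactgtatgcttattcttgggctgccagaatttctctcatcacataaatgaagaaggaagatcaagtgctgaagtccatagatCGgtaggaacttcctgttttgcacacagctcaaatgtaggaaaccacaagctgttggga

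Of the 10 members, 6 matched the promoter table. Pecam1, Lyve1, Adgre1 and Col1a1 had no entry there. Among the matched members not shown above, Clec4f had 0 CG in 129 bases and was listed in 4 libraries. Ptprc had 4 CG in the 199 bases of its longer entry and was listed in none.

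The strongest distal regions of the endothelial loci are shown next. In each of these loci the strongest distal region had a higher mean percentile than the gene's own promoter. The same held in the Kupffer and immune loci, and the strongest of several regions is set against the promoter alone. Each sequence is the 200 bases around the summit of the strongest interval of the region (GRCm38.p6, plus strand), and capitals mark matches to any of 9 motifs sought on both strands. The windows are chr11:106728412-106728611 in a Pecam1 intron, chr5:75975548-75975747 in a Kdr intron, chr10:86923750-86923949 in a Stab2 intron and chr7:110848487-110848686 between Lyve1 and Rnf141.
Pecam1: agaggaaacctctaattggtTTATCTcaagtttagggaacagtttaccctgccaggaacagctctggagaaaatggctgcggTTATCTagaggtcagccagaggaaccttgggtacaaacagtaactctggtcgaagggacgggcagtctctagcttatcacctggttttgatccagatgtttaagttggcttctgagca
Kdr: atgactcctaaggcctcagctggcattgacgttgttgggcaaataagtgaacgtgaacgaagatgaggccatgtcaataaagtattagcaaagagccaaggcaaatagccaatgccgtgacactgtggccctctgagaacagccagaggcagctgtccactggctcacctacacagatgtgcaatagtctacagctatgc
Stab2: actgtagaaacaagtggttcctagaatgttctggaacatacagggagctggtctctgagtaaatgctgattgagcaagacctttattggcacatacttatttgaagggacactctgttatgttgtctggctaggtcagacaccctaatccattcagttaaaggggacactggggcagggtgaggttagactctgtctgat
Lyve1: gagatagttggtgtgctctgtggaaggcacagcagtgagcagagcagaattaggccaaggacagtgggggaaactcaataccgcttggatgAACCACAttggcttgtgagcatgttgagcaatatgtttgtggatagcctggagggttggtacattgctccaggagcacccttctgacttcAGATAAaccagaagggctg

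The Pecam1 window holds 2 matches to the GATA letters AGATAA, and the Lyve1 window holds 1 of them and 1 match to the RUNX letters TGTGGTT. The Kdr and Stab2 windows hold none of the 9 motifs.

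The preparations were first checked against hepatocyte genes. All 12 hepatocyte markers tested by name had a promoter interval in at least 1 library and 7 had one in all 8, with the highest mean percentile at Hnf4a (97.3), a nuclear receptor of hepatocytes, and the lowest at Alb (22.6), the albumin gene. The Alb promoter itself was listed in 3 of 8 libraries, so an unlisted promoter in these data does not mean an inactive gene. Of 12 genes of tissues outside the liver, 2 were listed in all libraries (Syn1 and Ins2, the latter through a distant start of its gene model) and 5 in none. The median of the mean promoter percentiles was 59.1 for the hepatocyte markers, 1.22 for the genes of other tissues and 74.7 for all coding genes.

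The promoters of the 10 loci fell into 3 sets. Kdr, Col1a1 and Lrat were listed in all 8 libraries, Pecam1, Clec4f and Adgre1 in some, and Stab2, Lyve1, Ptprc and Lyz2 in none. Thus 3 of 10 were listed throughout and 4 of 10 never, where 60.3% of all coding promoters were listed in all libraries and 25.1% in none. Only Col1a1 and Lrat reached the 50000 strongest intervals in every library, which 49.4% of coding promoters did. The median of the members' mean percentiles was 5.76.

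**Figure D1:**
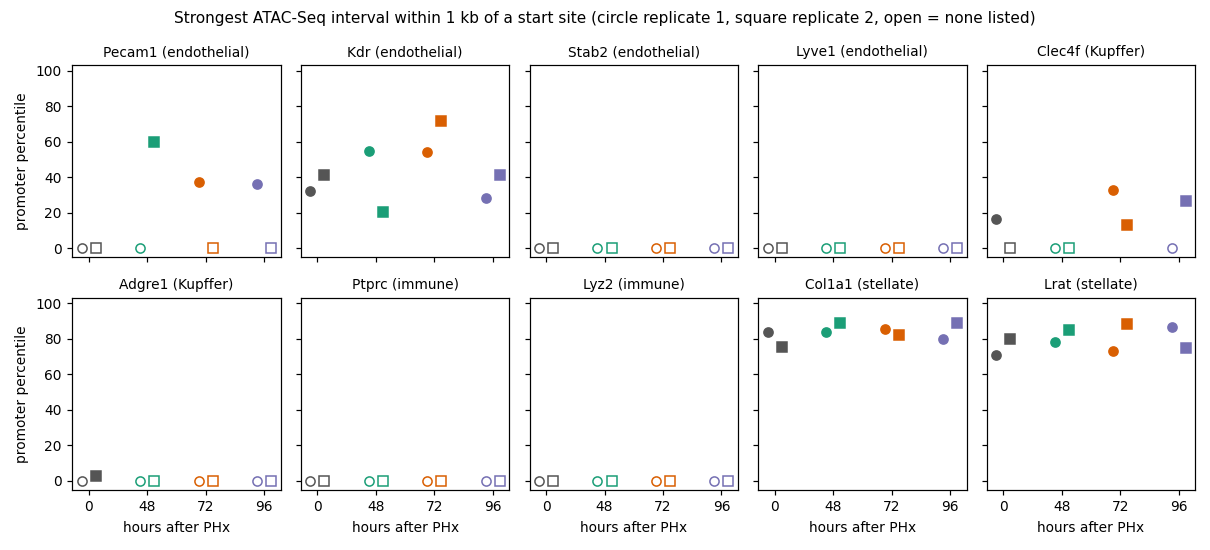
Promoter percentile (vertical axis, 0 to 100 within a library) of the 10 member genes against hours after PHx, 1 panel a gene, with circles for replicate 1, squares for replicate 2 and open symbols where no interval was listed. Col1a1 and Lrat lie between 70.9 and 88.8 in all 8 libraries, while Stab2, Lyve1, Ptprc and Lyz2 have no listed interval.

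Among the endothelial markers, Kdr (chr5:75932827-75978458), the VEGF receptor through which endothelial cells respond to growth signals, had the only promoter listed throughout. Its percentile was 32.4 and 41.2 in the undamaged libraries, 54.7 and 20.3 after 48 h, 54.0 and 71.6 after 72 h and 28.6 and 41.0 after 96 h (replicates 1 and 2). Both 72 h libraries lay above both 0 h libraries, and the other times overlapped with 0 h. The mean was 36.8 ± 6.21 (SD, n = 2) at 0 h and 45.0 ± 18.9 (SD, n = 6) after PHx, and the difference of 8.24 was within the spread (exact two-sided permutation test, p = 0.571, adjusted p = 0.932 over 15515 coding promoters). The sign differed by scale: ranked among coding promoters alone the difference was −0.0251, and in fold enrichment −0.0580. Fold enrichment was lower after PHx at coding promoters in general, with a median difference of −1.43 over the 13220 listed in all libraries. Its sign at Kdr is thus not particular to this gene. Without 1 library the percentile difference ranged from 2.92 (72 h replicate 2) and 3.85 (0 h replicate 1) to 12.6 (0 h replicate 2) and 13.2 (48 h replicate 2).

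Pecam1 (chr11:106654217-106750628), which encodes the junctional adhesion molecule CD31 of endothelium and some blood cells, had a promoter interval in 3 of 8 libraries. The percentile was 59.8 in 48 h replicate 2, 37.2 in 72 h replicate 1 and 36.4 in 96 h replicate 1, and the remaining 5 libraries had none. In 2 of these 3 libraries the interval was the edge of a region whose summit lay 1314 bp inside the gene, listed in all 8 libraries with a mean percentile of 46.1. That region was at 60.4 and 68.3 in the undamaged libraries, 31.8 and 59.8 after 48 h, 69.4 and 39.4 after 72 h and 36.4 and 3.51 after 96 h. Both 48 h and both 96 h libraries lay below both 0 h libraries, and 72 h overlapped with 0 h. The mean promoter difference from 0 h was 22.2 within 1 kb (exact permutation p = 0.464) and turned to −24.3 when 2 kb either side counted as promoter (p = 0.250), so no direction could be given. Within 1 kb the promoter entered the test through PHx libraries alone. That difference could only be positive, and its p is given as a description.

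Stab2 (chr10:86841198-87008025), a scavenger receptor of sinusoidal endothelium that clears hyaluronan from the blood, and Lyve1 (chr7:110850607-110863239), a hyaluronan receptor of lymphatic and sinusoidal endothelium, had no promoter interval in any library. Both are described further by their distal regions.

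Of the Kupffer cell markers, Clec4f (chr6:83644542-83656187), a lectin of mouse Kupffer cells, had weak promoter intervals in 4 libraries. The percentile was 16.6 in 0 h replicate 1, 32.7 and 13.4 after 72 h and 26.9 in 96 h replicate 2. The 0 h and PHx libraries overlapped, with a mean difference of 3.87 (exact permutation p = 0.857, adjusted p = 0.971). Without 1 library it ranged from −4.44 (0 h replicate 2) and −0.247 (72 h replicate 1) to 12.2 (0 h replicate 1), and was 0.925 without 96 h replicate 2. Adgre1 (chr17:57358691-57483527), the macrophage surface receptor used to stain Kupffer cells, had 1 promoter interval, at percentile 2.48 in 0 h replicate 2.

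The general immune markers Ptprc (chr1:138062861-138175708), the CD45 phosphatase of white blood cells, and Lyz2 (chr10:117277331-117282321), the lysozyme of macrophages and granulocytes, had no promoter interval in any of the 8 libraries. The 3 annotated starts of Ptprc were all covered by this search.

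The stellate cell markers had the strongest promoters of the set. Col1a1 (chr11:94936224-94953042), a chain of type I collagen, was at percentile 83.5 and 75.4 in the undamaged libraries, 84.0 and 88.8 after 48 h, 85.4 and 82.0 after 72 h and 79.7 and 88.8 after 96 h. The summit of this region lay 752 bp after the start, in the first part of the gene and within an intron. Both 48 h libraries lay just above both 0 h libraries and the other times overlapped. The mean was 79.5 at 0 h and 84.8 after PHx, a difference of 5.31 (exact permutation p = 0.143, adjusted p = 0.738). With 0 h replicate 1 or 2 left out it came to 9.36 or 1.26.

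Lrat (chr3:82892579-82903973), the enzyme that esterifies vitamin A for storage in stellate cells, was at percentile 70.9 and 79.8 in the undamaged libraries, 77.8 and 84.7 after 48 h, 73.2 and 88.2 after 72 h and 86.4 and 74.6 after 96 h. All 3 PHx times overlapped with 0 h, and the mean difference was 5.48 (exact permutation p = 0.321, adjusted p = 0.836). Leaving out 0 h replicate 1 or 2 gave 0.983 or 9.97. The region also lies in an intron of the noncoding gene Rbm46os, whose reads cannot be separated from those of Lrat here.

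The sign of these differences depended on the scale, and fold enrichment was lower after PHx over coding promoters in general. Fold enrichment at Col1a1 was 10.4 ± 0.688 (SD, n = 2) at 0 h and 9.25 ± 1.03 (SD, n = 6) after PHx, and at Lrat 10.5 ± 2.44 and 9.24 ± 2.34. On the log2 scale the differences were −0.18 for Col1a1, −0.20 for Lrat and −0.04 for Kdr, beside a median of −0.21 over the 13220 coding promoters listed in all libraries. Percentiles of those 13220 promoters had a median difference of −0.00581.

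The order of the mean promoter levels over 8 libraries was Col1a1 (83.5 ± 4.51, SD), Lrat (79.5 ± 6.46), Kdr (43.0 ± 16.6), Pecam1 (16.7 ± 24.1), Clec4f (11.2 ± 13.3) and Adgre1 (0.310 ± 0.878), with the other 4 at 0. Col1a1 and Lrat did not differ beyond their spread, nor did Pecam1 and Clec4f. Every library of Lrat was above every library of Kdr except for the 71.6 of Kdr in 72 h replicate 2, where Lrat was at 88.2.

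The comparison of 0 h with the 6 PHx libraries called none of the 5 member promoters listed in at least 2 libraries. By the same exact permutation test over 28 splits, whose smallest p is 0.0357, none of the 15515 coding promoters passed after adjustment (0%) and 1008 had an unadjusted p under 0.05 (6.5%), none of them a member. An adjusted p could pass only if most promoters of the table reached that smallest p, so the absence of calls says nothing about stability. A test over the 4 time points gave 0 calls and 880 promoters with an unadjusted p under 0.05 (5.67%), again without a member. In both libraries of a time point, 1 of 5 member promoters was higher than both 0 h libraries at 48 h (Col1a1), 1 at 72 h (Kdr) and 0 at 96 h, against 19.4%, 27% and 21.6% of coding promoters. None was lower at any time, against 20.7%, 15.4% and 11.4%, but only 3 of the 5 were listed in both 0 h libraries and could be. By fold enrichment 0 members were higher at 48 or 72 h, against 3.8% and 11.9% of coding promoters, and 2 were lower at 48 h and 1 at 72 h, against 62.2% and 32.8%. On the percentile scale, leaving out 1 library gave 1 to 3 higher at 48 h, 2 to 4 at 72 h (4 without 72 h replicate 2) and 1 to 2 at 96 h. With 1 library against 2, groups overlap less readily. The share over all coding promoters was not computed there, so these counts cannot be set against those above. With 2 libraries against 2, the smallest p is 0.333, so none is given for a single time. The 3 times share the 0 h libraries.

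The wider marker lists placed the 10 loci among other genes of the same cells. Of 16 further endothelial markers, 6 had a promoter interval in all libraries and 1 in none, from Gata4 (mean percentile 90.9), a transcription factor of sinusoidal endothelium among other cells, to Oit3 (0). Of 12 further Kupffer markers, 2 were listed in all libraries and 7 in none, with Nr1h3 (97.0), which hepatocytes also express, at the top. Of 12 further immune markers, 0 were listed in all libraries and 9 in none, with Coro1a (43.8) the highest. Of 13 further stellate markers, 2 were listed in all libraries and 3 in none, with Reln (93.8) the highest. Cd5l, Timd4, Vsig4, Marco, Cd3e and Cd79a were among the 7 Kupffer and 9 immune markers of these lists without a listed promoter. Others were listed: Cd68 in all 8 libraries (mean percentile 26.5), C1qc, Coro1a and S100a8 in 6, Laptm5 in 4, C1qb in 3 and Spic in 2.

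**Figure D2:**
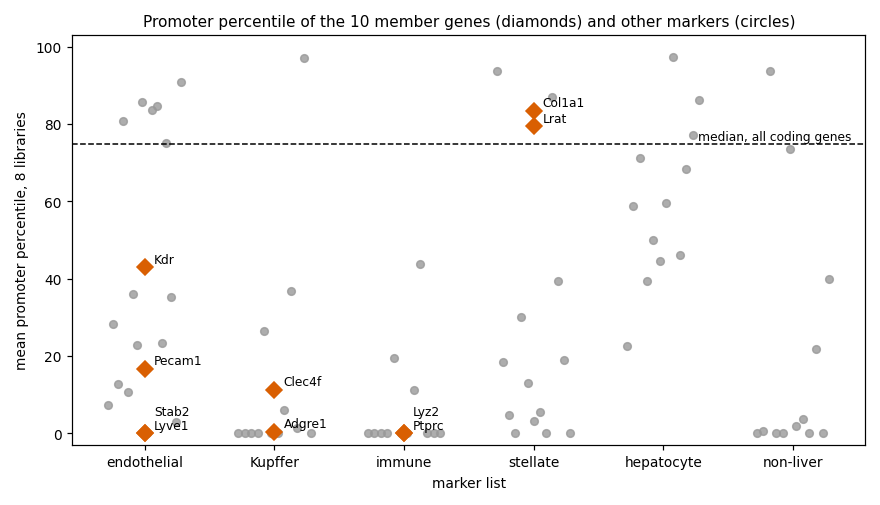
Mean promoter percentile over 8 libraries (vertical axis) of the 10 member genes (diamonds) and the other genes of 6 marker lists (circles), with the median of all coding genes, 74.7, as a dashed line. Stellate members lie above that line, endothelial members spread from 0 to 43.0, the Kupffer members lie at 11.2 (Clec4f) and 0.310 (Adgre1), and the immune members at 0.

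For the wider lists, promoters that did not overlap with 0 h were counted as a description. A promoter unlisted in a 0 h library could not lie below both, and while 88.7% of the tested coding promoters were listed in both 0 h libraries, 8 of 14 further endothelial, 2 of 5 Kupffer, 1 of 3 immune, 2 of 9 stellate, 3 of 5 non-liver and 12 of 12 hepatocyte promoters were. The counts of the lists are thus partly set by what was listed at 0 h. On the percentile scale, 4 of the 14 endothelial promoters were higher in both libraries at 48 h, 6 at 72 h and 8 at 96 h, against 19.4%, 27% and 21.6% of coding promoters. The corresponding counts were 3, 2 and 4 of 9 stellate promoters, 1, 1 and 1 of 5 Kupffer, 0, 2 and 1 of 3 immune and 1, 2 and 1 of 5 non-liver promoters, and none of the promoters in these lists was lower on this scale. Of the 12 hepatocyte promoters, 7 were lower at 48 h, 6 at 72 h and 4 at 96 h, against 20.7%, 15.4% and 11.4% of coding promoters, and 0 were higher. The counts differed by fold enrichment, for which 62.2% of coding promoters were lower in both libraries at 48 h, 32.8% at 72 h and 23.7% at 96 h, and 3.8%, 11.9% and 9.83% were higher. On that scale 1, 6 and 5 endothelial promoters were higher at these times and 4, 3 and 1 were lower. Of the stellate promoters 2, 1 and 2 were higher and 1, 0 and 0 lower, of the Kupffer promoters 1, 1 and 1 and 1, 0 and 0, of the immune promoters 0, 2 and 1 and 1, 0 and 0, and of the non-liver promoters 1, 1 and 1 and 2, 1 and 1. The hepatocyte promoters lower by fold enrichment numbered 9, 8 and 1, with 0 higher. The Alb promoter was listed in both 0 h libraries and after PHx in 96 h replicate 1 alone (58.7, between its values at 0 h). The part of list length in these counts was not tested: the number of the 53 further non-parenchymal markers with a listed promoter ranged from 13 in 0 h replicate 2, the shortest list, to 28 in 96 h replicate 1.

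Promoter listing ran alongside CG content. Counted from 250 bp before to 50 bp after the start, at the start with the most CG, Stab2, Clec4f, Adgre1, Ptprc and Lyz2 had 0 to 4 CG, a class in which 10.8% of 5634 coding promoters were listed in all libraries. Pecam1 and Lyve1 had 5, in the class of 5 to 9 with 35.5%. Kdr with 18 and Col1a1 with 11 fell in a class with 76.3%, and Lrat with 21 in one with 91.8%. All 3 members listed throughout were thus in the 2 classes with the most CG. Of 11 hepatocyte markers in the 2 lower classes, 4 of 6 and 2 of 5 were listed in all libraries. Of the 16 further endothelial markers, 6 were listed in all libraries, among them Fcgr2b with 5 CG and Tie1 and Dnase1l3 with 7 each.

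**Figure D3:**
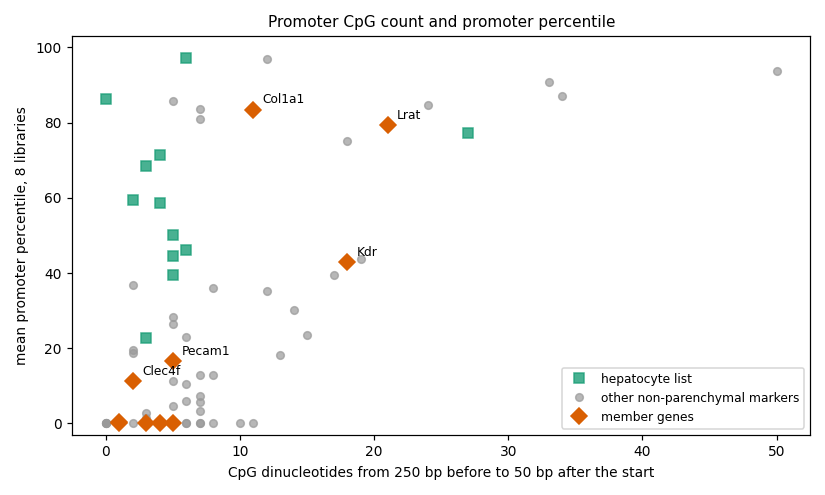
Mean promoter percentile over 8 libraries (vertical axis) against the number of CG dinucleotides around the start (horizontal axis) for the members (diamonds), other non-parenchymal markers (circles) and hepatocyte markers (squares). Members with 5 CG or fewer lie below 17. Several hepatocyte markers with as few lie above 50, as does the endothelial marker Fcgr2b (5 CG, 85.6).

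Away from promoters, 5 of the 10 loci had regions listed in all 8 libraries. Merged over the 8 libraries, the 10 windows held 155 regions, of which 11 had their summit at a promoter of the gene itself, 5 at a promoter of another gene and 139 were distal. Of the distal regions, 18 were listed in all 8 libraries (12.9%, against 15.0% of 284991 distal regions of the genome) and 85 in 1 library (61.2% against 55.2%). The 18 had a median mean percentile of 62.8, against 71.8 for the 42664 such regions of the genome. They were held by 5 loci: Stab2 with 8, Pecam1 with 4, Lyve1 with 3, Col1a1 with 2 and Kdr with 1. The windows differed in length, from 25.0 kb (Lyz2) to 187 kb (Stab2). Distal intervals among the 50000 strongest, per 100 kb, averaged 4.07 at Col1a1, 3.14 at Stab2, 2.68 at Lyve1, 2.47 at Pecam1 and 1.71 at Kdr. The median of all coding genes was 1.23. Clec4f, Adgre1, Ptprc, Lyz2 and Lrat had none.

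**Figure D4:**
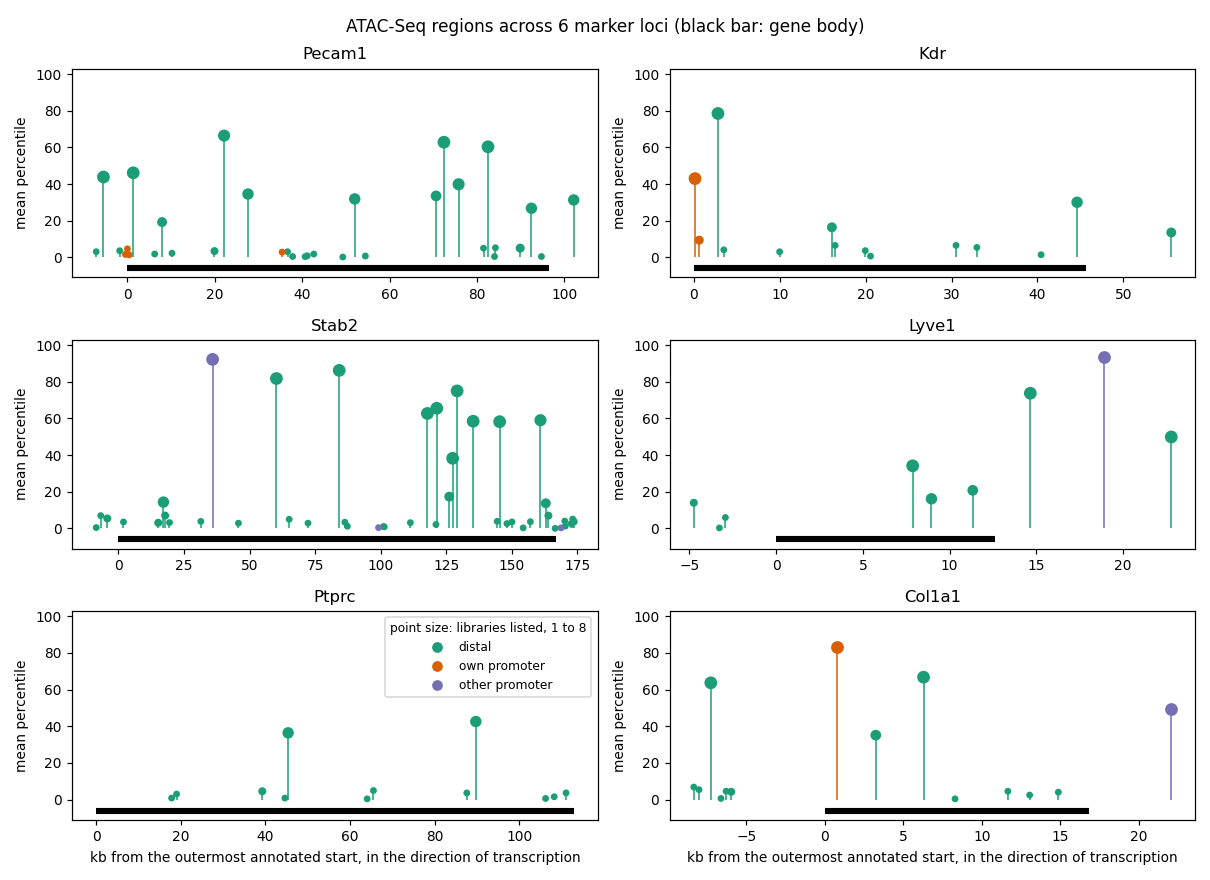
Mean percentile over 8 libraries (vertical axis) of the regions of 6 loci by distance from the outermost annotated start in kb (horizontal axis), with point size for the number of libraries and the gene body as a black bar. Stab2 has 8 distal regions listed in all 8 libraries and no promoter region of its own, whereas Ptprc has none.

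Stab2 had the strongest distal region of any member, in an intron 84175 bp from its start (chr10:86923532-86924223), whose central sequence is shown above. Its percentile was 94.9 and 81.1 in the undamaged libraries, 83.5 and 86.1 after 48 h, 91.9 and 90.2 after 72 h and 86.8 and 75.6 after 96 h. The PHx libraries overlapped with 0 h (exact permutation p = 0.714). A neighbouring intronic region (chr10:86947248-86948055) was at 76.8 and 84.4 in the undamaged libraries, 83.8 and 82.6 after 48 h, 87.4 and 75.2 after 72 h and 86.9 and 77.4 after 96 h. One more, over a coding exon (chr10:86878550-86880010), ranged from 69.2 to 79.7. These 3 were among the 50000 strongest intervals of every library, which was otherwise true of 1 distal region of the members, in Kdr.

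Within the Stab2 gene body the most open region was none of these. It lay at the start of the noncoding gene Gm16271 in a Stab2 intron (chr10:86971680-86973030), 35892 bp from the Stab2 start, and had a mean percentile of 92.3 ± 2.27 (SD, n = 8).

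Kdr carried its strongest region 2810 bp inside the gene, in an intron (chr5:75975217-75975819). Its percentile was 87.4 and 65.5 in the undamaged libraries, 63.3 and 76.7 after 48 h, 79.6 and 91.3 after 72 h and 84.7 and 79.5 after 96 h, above the Kdr promoter in every library. The 0 h and PHx libraries overlapped (exact permutation p = 0.821).

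Pecam1 held its strongest region in an intron (chr11:106728244-106729144), at 72.6 and 67.3 in the undamaged libraries, 83.6 and 73.3 after 48 h, 78.9 and 65.4 after 72 h and 90.2 in 96 h replicate 1. The region was not listed in 96 h replicate 2, both 48 h libraries lay above both 0 h libraries, and 72 h and 96 h overlapped with 0 h. Another intronic region (chr11:106667761-106668404) was as low as 18.6 in 48 h replicate 1 and 12.9 in 96 h replicate 2 while lying between 56.8 and 87.7 elsewhere, and both 48 h libraries (18.6 and 70.7) lay below both 0 h libraries. Of the 4 regions of the Pecam1 window listed in all libraries, 1 lies in an intron of the neighbouring gene Milr1.

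At Lyve1 the strongest distal region lay between the gene and its neighbour Rnf141 (chr7:110848306-110848771), at 56.3 and 79.6 in the undamaged libraries, 81.2 and 83.4 after 48 h, 82.0 and 65.5 after 72 h and 75.3 and 67.0 after 96 h. Both 48 h libraries were higher than both 0 h libraries, and the other times overlapped. The Rnf141 promoter in the same window had a mean percentile of 93.7, above any Lyve1 region.

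Col1a1 had 2 distal regions in all libraries. The one in an intron (chr11:94942216-94942778) was at 65.5 and 37.4 in the undamaged libraries, 74.3 and 76.7 after 48 h, 74.1 and 75.7 after 72 h and 71.7 and 59.0 after 96 h. Both libraries of 48 h and 72 h lay above 0 h, and 96 h overlapped (exact permutation p = 0.0714, adjusted p = 0.965). The one upstream of the gene (chr11:94928766-94929402) ranged from 18.2 in 0 h replicate 2 to 91.4 in 72 h replicate 2.

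The immune and Kupffer loci and the stellate locus Lrat had weaker distal intervals. Ptprc was listed most often in an intron (chr1:138085868-138086137), at 39.3 and 0 in the undamaged libraries, 0 and 56.8 after 48 h, 70.0 and 60.4 after 72 h and 42.5 and 71.6 after 96 h. All 4 libraries of 72 and 96 h lay above both 0 h libraries, and 48 h overlapped (exact permutation p = 0.179, adjusted p = 1). Clec4f had an intergenic region beyond its end (chr6:83642323-83644184) in 7 libraries, with a highest percentile of 41.6. The strongest region of Lyz2 was listed in 3 libraries, and that of Adgre1, listed in 1 library, had a mean percentile of 2.88. Lrat had 1 distal region, listed in 1 library, with a mean percentile of 1.93.

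**Figure D5:**
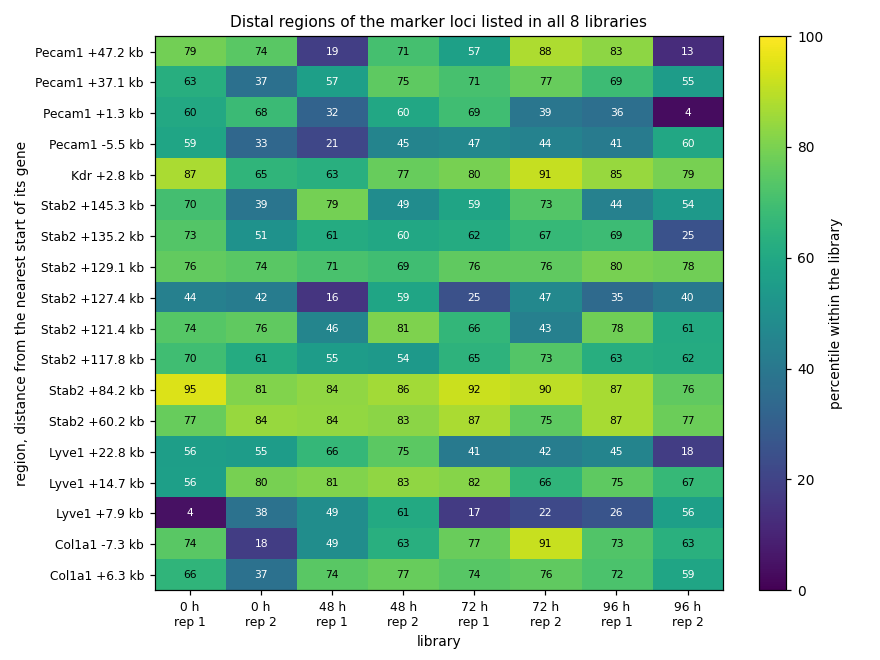
Percentile within the library (color and printed number, 0 to 100) of the 18 distal regions listed in all 8 libraries, 1 row a region named by gene and distance from the nearest start of that gene in kb, 1 column a library. The 8 Stab2 regions range from 15.5 to 94.9 and the 4 Pecam1 regions from 3.51 to 87.7.

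The number of distal intervals among the 50000 strongest was compared over time. At Stab2 it was 8 and 6 in the undamaged libraries, 6 and 4 after 48 h, 6 and 5 after 72 h and 6 and 6 after 96 h. The difference of −1.5 was within the spread (exact permutation p = 0.214, adjusted p = 1) and its sign turned when all listed intervals were counted (2.17). Leaving out 0 h replicate 1 or 2 gave −0.5 or −2.5 (exact permutation p = 1 or 0.143). Pecam1 had 3 and 3, 2 and 4, 3 and 3, and 5 and 0, and Kdr had 1 in every library but 96 h replicate 2, with 2. Clec4f, Adgre1, Lyz2 and Lrat had 0 in all libraries, as did 34.9% of coding genes. None of 13336 coding genes passed adjustment by this exact test (0%), and 259 had an unadjusted p under 0.05 (1.94%), none of them a member. As for the promoters, the absence of calls says nothing about stability. Summed over the 10 loci, the libraries had 11 to 15 such intervals, although the number of distal regions listed at any strength ran from 34 in 0 h replicate 2 to 61 in 96 h replicate 1.

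Region by region, 1 of the 54 member distal regions listed in at least 2 libraries had an unadjusted p under 0.05, where 4.29% of 127540 distal regions of the genome had (3.1% with the higher values after PHx, as here). It lay in a Pecam1 intron (chr11:106657973-106658461) and was unlisted in both 0 h libraries, with percentiles of 21.3 and 45.0 after 48 h, 13.7 and 44.3 after 72 h and 53.8 and 36.2 after 96 h. The exact permutation p was 0.0357, the smallest possible, and the adjusted p was 0.833. The region entered the test through its PHx libraries alone, so it could differ only in this direction and the p is given as a description. None of the 127540 regions passed adjustment (0%). Of the 54 regions, 7 were higher than 0 h in both libraries at 48 h (13.0%, against 14.1% of the genome), 10 at 72 h (18.5%, against 28.2%) and 9 at 96 h (16.7%, against 17.4%). Lower were 6 (11.1% against 12.2%), 2 (3.70% against 5.88%) and 5 (9.26% against 7.73%). On opposite sides of 0 h lay 1 of the 54 at 48 and 72 h (2.28% of the genome), 3 at 48 and 96 h (1.64%) and 0 at 72 and 96 h (1.14%).

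The 18 windows of 200 bp around the summits of the distal regions listed in all libraries were searched for 9 short motifs. The ETS letters AGGAAGT, bound by factors active in endothelium and blood cells, were in 2 windows, of Stab2 and Lyve1, where 4.71% of 42664 genome windows held them. The overlapping PU.1 letters GAGGAAG were in 1 (5.95%), GATA in 3 (9.53%), RUNX in 3 (4.61%) and the AP-1 letters TGANTCA in 1 (8.93%). The SOX letters ACAATNG (5.37%), the FOXA letters TGTTTAC (5.78%) and the LHX letters TAATTA (3.38%) were in none. The HNF4 letters CAAAGTC, part of the element read by the hepatocyte receptor of that name, were in 3 windows (6.64% of the genome's), all of Stab2. A match is a description of letters, and these counts were not tested. The 3 Stab2 windows are chr10:86862587-86862786, chr10:86880507-86880706 and chr10:86947692-86947891 (plus strand), shown in this order with every match in capitals, since the last also holds AP-1 and RUNX letters.
Stab2 intron: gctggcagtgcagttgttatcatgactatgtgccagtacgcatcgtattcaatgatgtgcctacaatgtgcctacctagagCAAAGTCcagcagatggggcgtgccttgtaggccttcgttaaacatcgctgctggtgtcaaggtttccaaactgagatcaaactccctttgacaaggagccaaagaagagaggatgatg
Stab2 intron: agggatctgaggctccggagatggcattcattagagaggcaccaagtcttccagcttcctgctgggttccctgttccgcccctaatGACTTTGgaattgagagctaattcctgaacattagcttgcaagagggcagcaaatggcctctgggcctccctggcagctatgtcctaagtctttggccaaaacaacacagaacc
Stab2 intron: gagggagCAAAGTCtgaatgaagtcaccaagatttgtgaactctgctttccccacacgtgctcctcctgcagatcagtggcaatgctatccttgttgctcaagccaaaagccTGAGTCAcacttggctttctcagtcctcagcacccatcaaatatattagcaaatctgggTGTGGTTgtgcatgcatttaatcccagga

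The mean percentiles of the regions behind these windows were 58.3, 38.3 and 81.8. The promoter regions of Kdr, Col1a1 and Lrat held none of the 9 motifs in their windows.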

How the data were processed

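Bulk ATAC-Seq was measured in 8 libraries of hepatocyte nuclei, 2 at each of 4 time points, grouped by the sample labels. The authors ran the ENCODE ATAC-Seq pipeline (trimming, Bowtie2 on mm10, duplicate removal) and called peaks per library, without pooling, by MACS2. Tool versions are not given in the sources used here. The deposited lists give a fold enrichment, a −log10 p and a −log10 q of each peak, as the authors' peak caller wrote them, and a display score, deposited by the authors and not used. The study's own test needs read counts and was not run.

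Lines sharing an interval were collapsed to the highest −log10 p and ranked. The percentile was taken over all distinct intervals of a library on chromosomes 1 to 19, X and Y. Genes and starts came from GENCODE M21 on GRCm38, where 0 intervals ended past a chromosome end. Promoters were tested if listed in at least 2 libraries. Differences of means were tested by two-sided exact permutation over libraries with Benjamini-Hochberg adjustment over all coding promoters, genes or distal regions (Python 3.11.15, numpy 2.4.6, pandas 2.3.3), called at an adjusted p under 0.05, after a check on simulated data. Intervals overlapping by at least 1 bp were merged into regions, classed by whether the strongest summit lay within 1 kb of a start. The test of single distal regions, the counts of the lists by fold enrichment and the Stab2 motif windows were chosen after seeing the data. So were the examples outside the naming rule: Alb, Syn1, Ins2, Fcgr2b, Tie1, Dnase1l3 and the further Kupffer and immune genes other than Nr1h3 and Coro1a.

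All 10 members are described. In the other lists, the gene with the highest and the one with the lowest mean promoter percentile were to be named, except where several genes shared 0. The members and lists were chosen with earlier results of these data known. Alternatives were a q threshold of 0.05, the 50000 or 25000 strongest intervals, other scales, summit position, window widths, a filter of 6 libraries, leaving out each library and a replicate block. The pairing of replicate numbers was checked by correlating deviations from group means over 15515 promoters (−0.0913 to 0.126), and the numbers did not pair the samples.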

Additional observations from a re-analysis of the deposited data

Results flagged for a closer look

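Distal regions of the members whose 2 libraries lay on opposite sides of both 0 h libraries at different times are given here. The differences between the times were not tested. Of 127540 distal regions of the genome, 2.28% did so between 48 and 72 h and 1.64% between 48 and 96 h. The region in an Rnf141 intron within the Lyve1 window (chr7:110840309-110840648) averaged 55.7 in undamaged liver, then 70.7 (48 h), 41.7 (72 h) and 31.6 (96 h), so that its 48 h difference from 0 h exceeded that at 72 h by 29.0 percentile points and that at 96 h by 39.1. A Pecam1 intronic region (chr11:106674467-106675794) averaged 36.1 in undamaged liver, then 9.72 (48 h) and 62.3 (96 h). The 48 h difference minus its 96 h difference was −52.6. The Stab2 region over a coding exon (chr10:86878550-86880010) averaged 75.3, 70.3 and 79.1 at the same times, and the corresponding value was −8.81.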

How the results depend on the processing

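The lists carry no read depth, so weak intervals cannot be separated from short lists, and with 2 libraries at 0 h an adjusted p could pass only if a large share of all promoters reached the smallest p. The counts of called promoters, genes and distal regions were 0 under every alternative run. Members listed at their promoter in all libraries (main value 3) and in none (4) were 2 and 7 among the 50000 strongest intervals, 2 and 5 with q under 0.05 and 4 and 3 with promoters of 2 kb either side. Member promoters higher than 0 h in both libraries were 0 at 48 h (main value 1) with q under 0.05 or by fold enrichment, and 0 at 72 h (main value 1) with the 50000 strongest intervals, by rank among coding promoters or by fold enrichment. Members lower than 0 h were 2 at 48 h and 1 at 72 h by fold enrichment, and 1 at 48 h and 1 at 96 h with promoters of 2 kb either side. Leaving out 1 library gave 1 to 3 higher at 48 h, 2 to 4 at 72 h and 1 to 2 at 96 h, and 0 to 1 lower at 48 h and 96 h. The replicate block, by numbers that do not pair the samples, gave 2 higher at 48 h, 4 at 72 h and 1 lower at 96 h, and 0 calls. Shares over all coding promoters were computed for the main setting and fold enrichment alone. The other counts have none beside them, and leaving out 1 library makes non-overlap easier.

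None of the following differences passed the test, and the cause of each turn in sign was not tested. Promoter differences turned at Kdr by rank among coding promoters (−0.0251) and fold enrichment (−0.0580), at Clec4f by rank (−0.347) and without 0 h replicate 2 (−4.44) or 72 h replicate 1 (−0.247, against 12.2 at most without another), at Col1a1 (−1.19) and Lrat (−1.28) by fold enrichment, and at Pecam1 with 2 kb (−24.3). Over the 13220 coding promoters listed in all libraries the median fold difference was −1.43. The turns by fold enrichment are thus not particular to these genes. Distal count differences turned with all listed intervals at Pecam1 (2.33) and Stab2 (2.17), with the 25000 strongest at Pecam1 (0.667), Kdr (−0.167), Stab2 (0.167) and Lyve1 (−0.167), with 20 kb windows at Pecam1 (0.333) and Lyve1 (−0.167), and by leaving out 1 library at Col1a1 (−0.333 to 1.67) and Pecam1 (−0.6 to 0.4). The Pecam1 region unlisted at 0 h, whose direction is fixed by that, differed by 32.1 to 40.1 without 1 library. Leaving out 72 h replicate 2, whose list is named in another style than the other 7, turned no member's sign. It gave the 4 members higher at 72 h, where 1 library was then left.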
